A study of Mus musculus with 32 samples.

Results

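The genes described here are 10 components of the bone morphogenetic protein (BMP) pathway, namely the ligands *Bmp2*, *Bmp3* and *Bmp4*, the receptors *Bmpr1a* and *Bmpr2*, the secreted inhibitors *Grem1* and *Nog*, the membrane inhibitor *Bambi* and the inhibitory Smads *Smad6* and *Smad7*. They were chosen by symbol, each matched 1 row of the count matrices, and together they are 10 of the 31053 genes in those matrices. BMP ligands bind a complex of type I and type II receptors, which phosphorylates Smad1, Smad5 and Smad9 and so turns on target genes such as the Id genes. The pathway is known for driving mesenchymal progenitors towards bone, and it is held back at several levels, by proteins that bind the ligand outside the cell, by a receptor without a kinase domain, and by Smads that block the receptor complex. BMP signals also act in the adipogenic lineage.

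The cells were marrow stromal cells grown towards bone in culture (BMSC-OBs), taken from the femurs of Diversity Outbred mice, an outbred stock bred from several inbred and wild-derived founder strains. After growth to confluence all cultures received the same osteogenic medium with ascorbic acid, β-glycerophosphate and dexamethasone, and no culture without it was compared, so every comparison here is between cell types of the same cultures. Cells of 4 or 5 mice were mixed in each of 16 pools, 77 mice in all, and sequenced with the 10x Chromium 3′ v2 kit. The mice were of both sexes according to the study's methods, the labels give neither sex nor age, and cells were not assigned to mice here, so the pool is the replicate. Cells were liberated with EDTA, collagenase and trypsin.

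Of 107853 cell barcodes, 88909 passed filters with the study's limits, of which 400 and 6200, given by the study for reads, were applied to genes per cell, and 83906 were left after doublets were removed. Total counts were between 53990642 and 100777353 unique molecular identifiers (UMIs) per pool, and the median per cell between 2782 UMIs in pool 13 and 15273 UMIs. Marker genes other than the 10 members sorted 35239 of 46309 mesenchymal cells into 6 gates, called after the cell types whose markers they used, which are the late mesenchymal progenitor (LMP) gate with 10768 cells, the osteoblast progenitor (OBP) gate with 5683, the osteoblast 1 (OB1) gate with 3691, the osteoblast 2 (OB2) gate with 4610, the osteocyte-like (Ocy) gate with 2760 and the marrow adipogenic lineage precursor (MALP) gate with 7727. A gate is a range of per-cell marker scores and not a type. The remaining 11070 mesenchymal cells (23.9%) lay closer to 2 gates than the margin allowed, and 8710 gated cells (24.7%) lay within 0.25 of that margin, from 10.1% in the MALP gate and 16.8% in LMP to 30.9% in OBP, 37.5% in OB2, 38.3% in Ocy and 42.7% in OB1. Each gate was highest for its own markers, which follows from sorting cells by those markers and is not a check of the gates. The summed LMP markers (*Acta2*, *Tagln*, *Aspn* and others) had a median of 87.9 UMIs per 10,000 in the LMP gate and at most 20.8 in any other gate. The summed MALP markers (*Cxcl12*, *Adipoq*, *Lpl* and others) had a median of 248 UMIs per 10,000 in the MALP gate and at most 8.29 elsewhere. The OB2 markers are mostly genes of hypoxia and glycolysis, and pools 1 and 2 had under 20 cells in the OB2 gate, so it was measured in 14 pools and the other gates in 16. Median depth ran from 9493 UMIs per cell in the MALP gate to 21133 in the OBP gate. A macrophage gate of 8173 cells (median 5222 UMIs) and a T-cell gate of 306 cells (median 5208.5 UMIs, 3 pools with at least 20 cells) gave the levels in cells outside the lineage, to which RNA from outside the cell contributes. They were not alike for every member. *Smad6* was found in 10.4% of macrophages and in 0 of 271 T cells of these pools, which allows a share of up to 1.11% of cells with a UMI, for counting error only. In the second run it was found in 10.6% of macrophages and in 0.701% of T cells, with 1.68% in the highest T-cell pool. The *Smad7* level was 0.380 in macrophages and 1.14 in T cells, and the macrophage level is not used as a background for these genes. Of 106313 distinct barcodes, 1521 were seen in more than 1 pool. Pool 6 held the highest *Grem1* level in all 6 gates, so *Grem1* values are also given without it.

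Along the osteogenic side *Bmp3* and *Bambi* were high, and *Bmp2* was highest in the OB2 and Ocy gates. The *Grem1* level was close to that of macrophages in OB2 and under it in OBP, OB1 and Ocy. In the MALP gate *Grem1*, *Bmp4*, *Smad6* and *Smad7* were highest, *Smad7* by less than the spread between pools against the Ocy gate, while *Bmp3* and *Bambi* were lowest. *Bmpr1a* and *Bmpr2*, the receptors, varied least. Below, a level is the mean over pools of UMIs per 10,000 UMIs with its SD. A difference is the log2 fold change ± SE from the edgeR quasi-likelihood test on UMI sums per pool and gate. The SE was derived from that test, as the size of the log2 fold change over the square root of its F statistic. A gene was called where the Benjamini-Hochberg adjusted p over 12093 genes was at most 0.05 and the log2 fold change at least 0.5 in size. Levels of different genes are not compared, since this assay reads the 3′ end and capture differs between genes. A summed level cannot tell fewer RNA molecules per cell from fewer cells that hold the RNA, and shares of cells are therefore given as well.

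**Figure D1:**
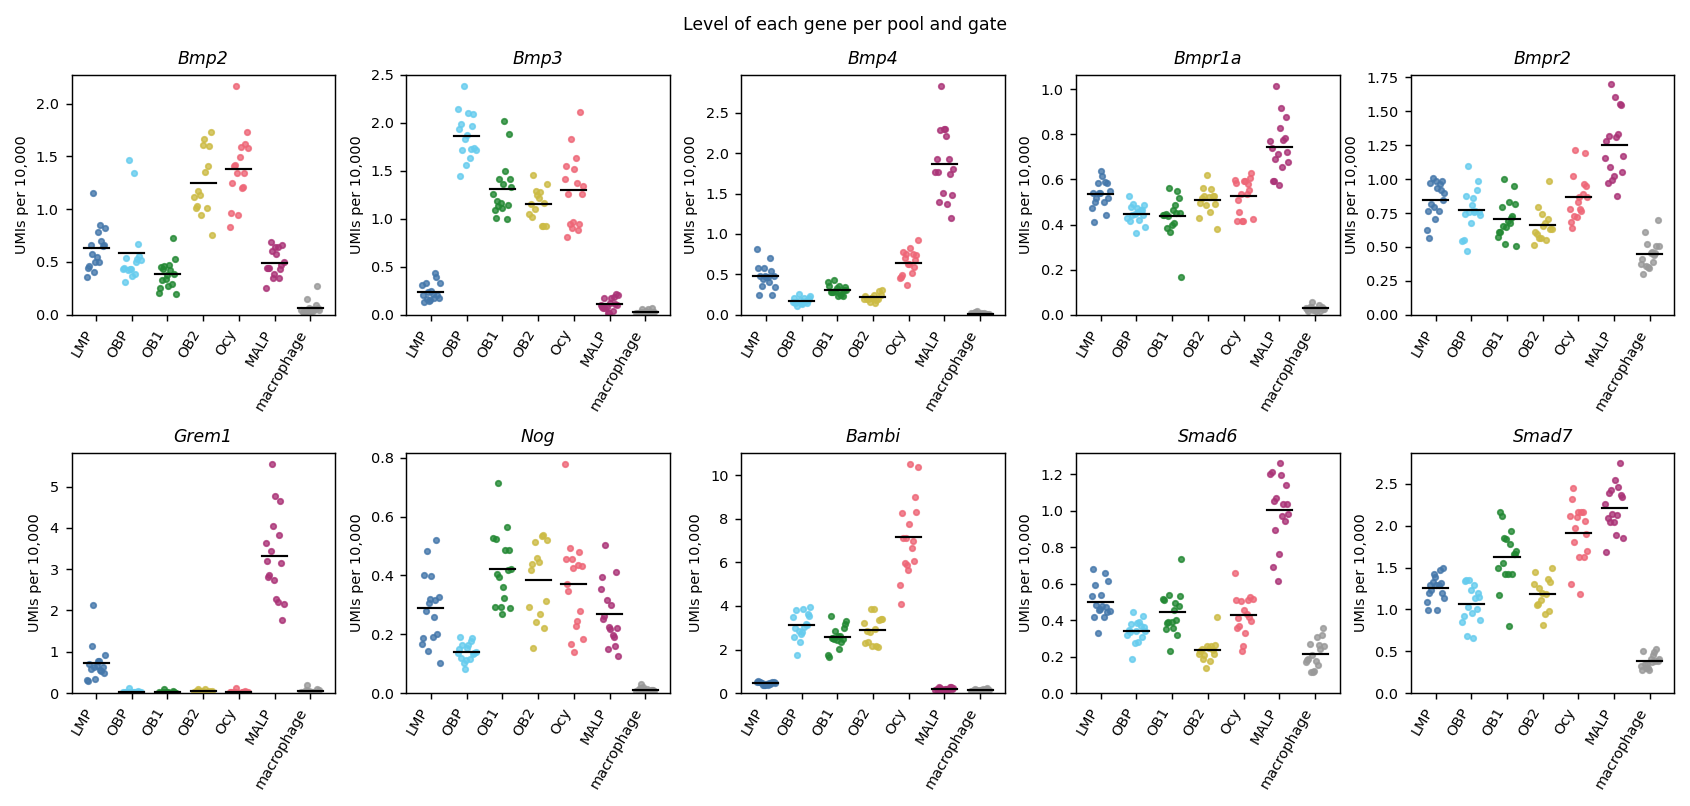
Level of each of the 10 members (UMIs per 10,000, linear axes from 0) in each pool (points, 16 pools, 14 for OB2) by gate, with the mean over pools as a line and the macrophage gate at the right. *Grem1* spans from 3.31 in the MALP gate to 0.0189 in the OB1 gate, *Bambi* from 7.18 in the Ocy gate to 0.197 in the MALP gate, and the receptor *Bmpr1a* only from 0.745 to 0.436.

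Among the ligands, *Bmp2* (GRCm38 chromosome 2, 133552159 to 133562885, plus strand) encodes a strongly osteogenic BMP. Its level in the OB2 gate was 1.25 ± 0.306 (SD, n = 14 pools; lowest 0.756, median 1.15, highest 1.73), and in the Ocy gate 1.38 ± 0.332 (n = 16; 0.831, 1.38 and 2.17). In the OB1 gate it was 0.385 ± 0.134 (0.198, 0.381 and 0.726), so that every pool of the OB2 and of the Ocy gate lay above every pool of the OB1 gate. The Ocy gate exceeded the OB2 gate in 9 of 14 pools, by less than the SD of the difference. The LMP gate (0.629 ± 0.204), the OBP gate (0.585 ± 0.332) and the MALP gate (0.493 ± 0.130) followed, and their neighbours in this order did not differ beyond the SD. The macrophage gate had a *Bmp2* level of 0.0641. The *Bmp2* difference between OB2 and OB1 was 1.58 ± 0.13 (adjusted p = 1.39e-18, higher in 14 of 14 pools), and between Ocy and OB1 1.63 ± 0.13 (adjusted p = 4.15e-19, higher in 16 of 16 pools).

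*Bmp3* (chromosome 5, 98854415 to 98884396, plus strand) encodes an atypical BMP that opposes the osteogenic ones. Its level was 0.240 ± 0.0938 in the LMP gate (lowest pool 0.132, median 0.210, highest 0.438) and 1.87 ± 0.243 in the OBP gate (1.45, 1.85 and 2.38), with no overlap between the pools of the 2 gates. It then stood at 1.31 ± 0.290 in OB1, 1.15 ± 0.168 in OB2 and 1.30 ± 0.376 in Ocy, and in this order of levels neighbours among these 3 gates did not differ beyond the SD of their difference. The OBP level lay above the OB1 level in 16 of 16 pools, although the difference after scaling, −0.30, was under the size that was called. The MALP gate had the lowest mesenchymal *Bmp3* level, 0.111 ± 0.0646 (0.0162, 0.101 and 0.219), against 0.0312 in the macrophage gate, which it exceeded in 13 of 16 pools. The difference between OBP and LMP was 3.27 ± 0.13 (adjusted p = 3.23e-38, higher in 16 of 16 pools), and between MALP and LMP −1.34 ± 0.15 (adjusted p = 2.29e-13, lower in 15 of 16 pools).

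*Bmp4* (chromosome 14, 46383520 to 46390669, minus strand), a ligand of the same subgroup as *Bmp2*, was distributed differently from it. Its level in the MALP gate was 1.86 ± 0.435 (lowest pool 1.2, median 1.78, highest 2.83), above every pool of every other gate. The Ocy gate came next with 0.644 ± 0.154 (0.365, 0.654 and 0.924), then the LMP gate with 0.476 ± 0.152 (0.239, 0.473 and 0.818), which did not differ beyond the SD of their difference. The lowest *Bmp4* level was in the OBP gate, 0.174 ± 0.0381 (0.108, 0.167 and 0.252), with 0.309 ± 0.0583 in OB1 and 0.214 ± 0.0454 in OB2. The macrophage gate was at 0.0145. *Bmp4* was called in all 5 comparisons, although the call between OB2 and OB1 was lost with no margin between gates (−0.49), with differences of −1.14 ± 0.12 from LMP to OBP (adjusted p = 1.74e-14), 1.73 ± 0.11 from LMP to MALP (1.72e-25), 1.03 ± 0.13 from OBP to OB1 (1.90e-10), −0.59 ± 0.14 from OB1 to OB2 (1.17e-04) and 0.87 ± 0.13 from OB1 to Ocy (1.44e-08), each in the same direction in every pool.

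The receptors were detected in every gate and in none of the 5 comparisons did either pass the call rule. *Bmpr1a* (chromosome 14, 34410734 to 34503341, minus strand), a type I receptor, had levels of 0.534 ± 0.0611 in LMP, 0.449 ± 0.0404 in OBP, 0.436 ± 0.0894 in OB1, 0.507 ± 0.0595 in OB2, 0.528 ± 0.0776 in Ocy and 0.745 ± 0.122 in MALP (lowest 0.573, median 0.732, highest 1.02). *Bmpr2* (chromosome 1, 59763400 to 59879014, plus strand), the type II receptor with a long cytoplasmic tail, had levels between 0.659 ± 0.122 in OB2 and 0.869 ± 0.167 in Ocy, and 1.25 ± 0.251 in MALP (0.873, 1.22 and 1.70). Both receptors were highest in the MALP gate in the plot of levels, above the next gate in 16 of 16 pools. Scaled by TMM, the differences between MALP and LMP were 0.22 for *Bmpr1a* (adjusted p = 2.09e-05) and 0.31 for *Bmpr2* (adjusted p = 1.64e-07), below the size called. Scaling by library totals alone raised the second to 0.56, past that size, and moved the median of all genes by 0.25 in the same comparison. The macrophage gate was at 0.0281 for *Bmpr1a* and at 0.450 for *Bmpr2*.

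*Grem1* (chromosome 2, 113746164 to 113758646, minus strand) encodes gremlin 1, which binds BMP2 and BMP4 outside the cell. Its level in the MALP gate was 3.31 ± 1.06 (lowest 1.76, median 3.17, highest 5.54) and in the LMP gate 0.721 ± 0.437 (0.297, 0.637 and 2.14). The MALP gate was above the LMP gate of the same pool in 16 of 16 pools, but the highest LMP pool, pool 6, lay above the lowest MALP pool. Without pool 6 the level was 3.17 in the MALP gate and 0.627 in the LMP gate. In the OBP gate the level was 0.0279, in OB1 0.0189, in OB2 0.0446 and in Ocy 0.0222, against 0.0446 ± 0.0485 in the macrophage gate, where pool 6 was also highest with 0.201. The macrophage gate of the same pool was exceeded by OBP in 4 of 16 pools and by OB1 in 3 of 16. OB2 exceeded it in 8 of 14 and Ocy in 2 of 16. Macrophages were shallower, with a median of 5222 UMIs per cell against 21133 in OBP, 18897 in OB1 and 14534 in Ocy. An equal number of UMIs from outside the cell would therefore weigh more in a macrophage. The comparison cannot tell whether OBP, OB1 and Ocy cells hold *Grem1* RNA of their own. OB2 was not set apart from macrophages in either direction. Without pool 6 the levels were 0.0212 in OBP, 0.0135 in OB1, 0.0403 in OB2 and 0.0155 in Ocy, against 0.0342 in the macrophage gate, which OB2 exceeded in 8 of 13 pools. The difference between MALP and LMP was 2.08 ± 0.13 (adjusted p = 9.79e-26) and between OBP and LMP −4.37 ± 0.18 (adjusted p = 2.45e-37, lower in 16 of 16 pools, no overlap). The OBP level may hold RNA from outside the cells, so the size of the second difference depends on an amount that was not measured. Between OB2 and OB1 *Grem1* was called higher (0.99 ± 0.29, edgeR adjusted p = 0.0027). The OB1 level lay under that of macrophages and the OB2 level near it. This call was lost with a wider margin between gates (0.83, edgeR adjusted p = 0.0522).

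*Nog* (chromosome 11, 89300638 to 89302332, minus strand), which encodes noggin, another secreted protein that binds BMP ligands, did not follow *Grem1*. Its level was lowest in the OBP gate, 0.141 ± 0.0311 (lowest 0.0801, median 0.136, highest 0.191), and highest in the OB1 gate, 0.424 ± 0.123 (0.269, 0.412 and 0.715), with no overlap between these 2 gates. The OB2 (0.383 ± 0.131), Ocy (0.369 ± 0.162), LMP (0.288 ± 0.120) and MALP (0.268 ± 0.105) gates lay between, and neighbours from OB1 down to MALP did not differ beyond the SD of the difference. The macrophage gate was at 0.0107. The difference between OB1 and OBP was 1.76 ± 0.17 (adjusted p = 2.79e-14, higher in 16 of 16 pools) and between OBP and LMP −0.69 ± 0.16 (adjusted p = 1.10e-04, lower in 15 of 16 pools). The *Nog* difference between MALP and LMP, −0.30, was not called (adjusted p = 0.0831).

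*Bambi* (chromosome 18, 3507923 to 3516404, plus strand) encodes a transmembrane pseudoreceptor that lacks the kinase domain. Its level was 0.448 ± 0.0627 in LMP (lowest 0.346, median 0.462, highest 0.544), 3.11 ± 0.606 in OBP (1.73, 3.08 and 3.97), 2.58 ± 0.522 in OB1 (1.65, 2.53 and 3.55), 2.91 ± 0.627 in OB2 (2.10, 2.90 and 3.88) and 7.18 ± 1.81 in Ocy (4.09, 7.06 and 10.5). Every Ocy pool lay above every pool of the other gates, and every OBP, OB1 and OB2 pool above every LMP pool, while OBP against OB2 and OB2 against OB1 did not differ beyond the SD of the difference. The MALP gate was at 0.197 ± 0.0472 (0.133, 0.192 and 0.274), below every LMP pool and 1.43 times the macrophage level of 0.138 ± 0.0392. The differences were 3.04 ± 0.10 between OBP and LMP (adjusted p = 1.19e-43), 1.26 ± 0.09 between Ocy and OB1 (adjusted p = 6.94e-20) and −1.45 ± 0.10 between MALP and LMP (adjusted p = 7.45e-22), each in 16 of 16 pools. *Bambi* is one of the genes that the study displays for its osteocyte-like cells, and it was left out of the Ocy markers here.

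The inhibitory Smads are themselves targets of BMP and TGF-β signals and feed back on them. *Smad6* (chromosome 9, 63953076 to 64022059, minus strand), which acts mainly on BMP receptors, had a level of 1.00 ± 0.189 in the MALP gate (lowest 0.612, median 1.04, highest 1.26) and 0.50 ± 0.0946 in the LMP gate (0.330, 0.475 and 0.677), higher in MALP in 16 of 16 pools. It was lowest in the OB2 gate, 0.235 ± 0.0639, beside 0.215 in the macrophage gate and no UMI in the T-cell gate. The *Smad6* differences were 0.74 ± 0.08 between MALP and LMP (adjusted p = 9.15e-14), 0.54 ± 0.09 between OB1 and OBP (adjusted p = 3.23e-07, higher in 14 of 16 pools) and −0.89 ± 0.10 between OB2 and OB1 (adjusted p = 7.06e-13, lower in 14 of 14 pools). The second of these was near the size called and was lost with the second sequencing run (0.46), with no margin between gates (0.48) and with library totals (0.32).

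*Smad7* (chromosome 18, 75367529 to 75395935, plus strand), which acts on TGF-β and BMP receptors, had levels of 1.26 ± 0.153 in LMP (lowest 0.993, median 1.29, highest 1.49), 1.06 ± 0.230 in OBP, 1.63 ± 0.346 in OB1, 1.18 ± 0.197 in OB2, 1.92 ± 0.353 in Ocy and 2.21 ± 0.280 in MALP (1.68, 2.20 and 2.75). MALP exceeded Ocy in 12 of 16 pools, by less than the SD of the difference, and no MALP pool overlapped with an LMP pool. The *Smad7* difference between MALP and LMP was 0.57 ± 0.06 (adjusted p = 9.52e-13), between OB1 and OBP 0.84 ± 0.07 (adjusted p = 2.85e-18), both in 16 of 16 pools, and between OB2 and OB1 −0.53 ± 0.07 (adjusted p = 6.10e-10, lower in 13 of 14 pools). Between Ocy and OB1 the *Smad7* level was higher in 16 of 16 pools but the difference was 0.04 (adjusted p = 0.686), in a comparison where library totals and TMM scaling set the median of all genes 0.19 apart. The difference between OB2 and OB1 was lost with no margin between gates (−0.49) and with library totals (−0.49). A list of 10 genes that respond to dissociation (*Fos*, *Jun*, *Egr1* and others) was highest in the same 3 gates as *Smad7*, with medians over cells of 30.2 UMIs per 10,000 in LMP, 37.5 in OBP, 51.1 in OB1, 34.3 in OB2, 53.1 in Ocy and 53.0 in MALP, and its part in the result was not tested.

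**Figure D2:**
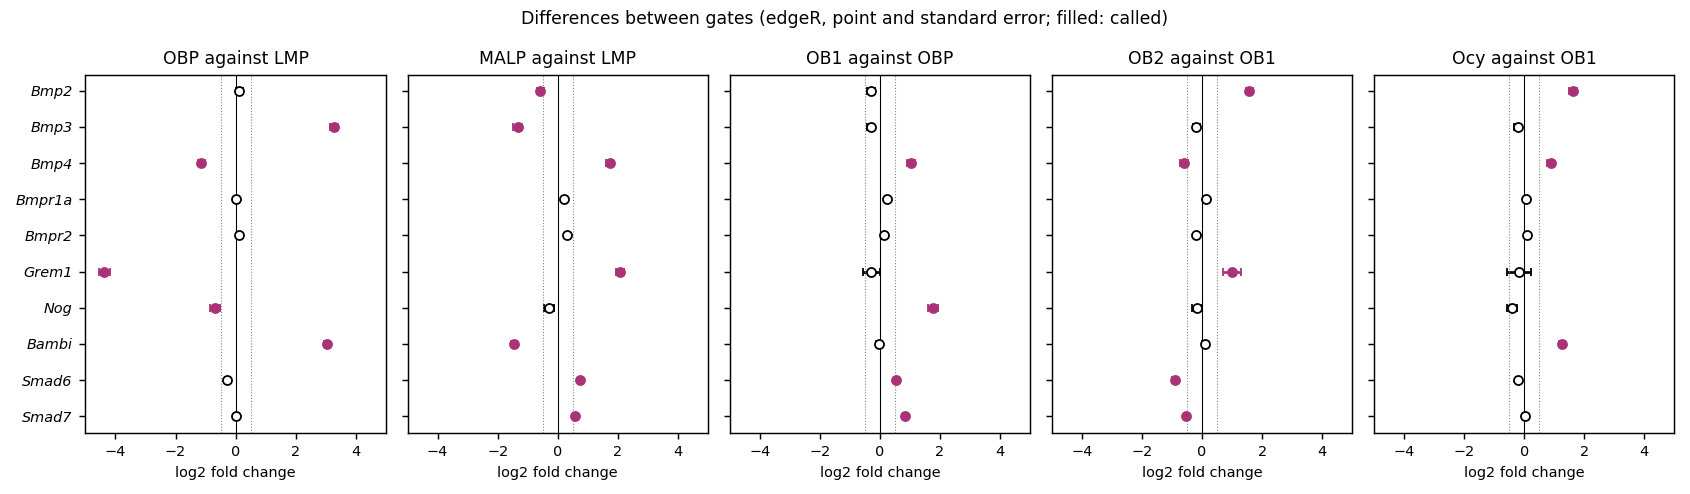
Difference (log2 fold change, bars are SE) of each member in each of the 5 comparisons from the edgeR fit, filled where called. In OBP against LMP *Grem1* stands at −4.37, where its OBP level was under that of macrophages, and *Bmp3* at 3.27. The 2 receptors stay within the size that was not called.

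Read by comparison, the first step, OBP against LMP, asks how the pathway differs where progenitors take up the osteoblast programme. *Bmp3* and *Bambi* were higher and *Bmp4*, *Grem1* and *Nog* lower, that is 2 of 10 members against 18.2% of all genes called higher and 3 of 10 against 22% called lower. The members' median log2 fold change was 0.01, and that of all genes −0.04. *Smad6* was at −0.27 (adjusted p = 0.00234) and *Smad7* at 0.01 (adjusted p = 0.893), neither called. Of all calls in this comparison 45.3% were higher, and 24.8% with library totals alone, a scaling that moved the median of all genes by −0.27.

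In the adipogenic step, MALP against LMP, *Bmp4*, *Grem1*, *Smad6* and *Smad7* were higher, which is 4 of 10 members against 18.5% of all genes. *Bmp2* (−0.59 ± 0.12, adjusted p = 4.93e-06, lower in 12 of 16 pools), *Bmp3* and *Bambi* were lower, which is 3 of 10 against 19%. The median was 0.27 over the members and 0.01 over all genes. With library totals alone the *Bmp2* difference fell under the size called (−0.34), and the share of all calls that were higher went from 49.4% to 72.1%.

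From OBP to OB1, *Bmp4*, *Nog*, *Smad6* and *Smad7* were higher, 4 of 10 against 10.8% of all genes, and 0 of 10 were lower against 8.47%. *Bmp2* (edgeR adjusted p = 0.0403) and *Bmp3* (adjusted p = 0.0309) passed the adjusted threshold at −0.30 each, below the size called, and were the 2 of 10 lower at an unadjusted p under 0.05. DESeq2 called 0 lower. From OB1 to OB2, *Bmp2* and *Grem1* were higher, 2 of 10 against 15.2%, and *Bmp4*, *Smad6* and *Smad7* were lower, 3 of 10 against 13.1%. The *Grem1* call was between levels near or under that of macrophages and was lost with a wider margin between gates. From OB1 to Ocy, *Bmp2*, *Bmp4* and *Bambi* were higher, 3 of 10 against 7.32%, and 0 of 10 were lower against 10.1%. At an unadjusted p under 0.05 *Nog* (−0.40) and *Smad6* (−0.20) were lower, 2 of 10, and DESeq2 again called 0 lower. The OB1 sums enter both of the last 2 comparisons. With library totals alone the share of all calls that were higher went from 56.0% to 23.4% between OB1 and OBP and from 42.1% to 69.1% between Ocy and OB1. The medians over the members were 0.17, −0.18 and 0.04 in these 3 comparisons, against −0.01, 0.00 and −0.02 over all genes.

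The share of cells with at least 1 UMI depends on depth, so cells were thinned to 4000 UMIs, which left out 835 LMP, 369 OBP, 230 OB1, 183 OB2, 170 Ocy, 785 MALP and 2547 macrophage cells. *Grem1* was then found in 50.1% of MALP cells and 15% of LMP cells, but in 1.43% of OBP, 0.621% of OB1, 1.45% of OB2 and 0.980% of Ocy cells, beside 1.54% of macrophages. Before thinning, the *Grem1* shares were 60.8% in MALP, 31.5% in LMP and 5.30% in OBP. They were 3.42% in OB1, 6.44% in OB2 and 3.03% in Ocy, beside 2.06% of macrophages. *Bambi* was found in 79.5% of thinned Ocy cells, 57.8% of OBP, 15.2% of LMP and 7.02% of MALP cells, beside 5.02% of macrophages, and before thinning in 92.7% of Ocy cells. *Bmp3* was found in 47.5% of thinned OBP cells (83.1% before thinning), 7.37% of LMP and 3.22% of MALP cells. *Bmp4* was found in 34.5% of MALP, 20.2% of Ocy and 6.46% of OBP cells after thinning, and *Bmp2* in 31.8% of OB2, 34.5% of Ocy and 14.1% of OB1 cells. *Smad6* was found in 31.4% of MALP cells and 17.9% of LMP cells, with 7.69% of macrophages. Ligand and inhibitor RNA of 1 kind was thus detected in only part of the cells of each gate at this depth, which cannot tell cells without the RNA from cells in which it was missed.

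**Figure D3:**
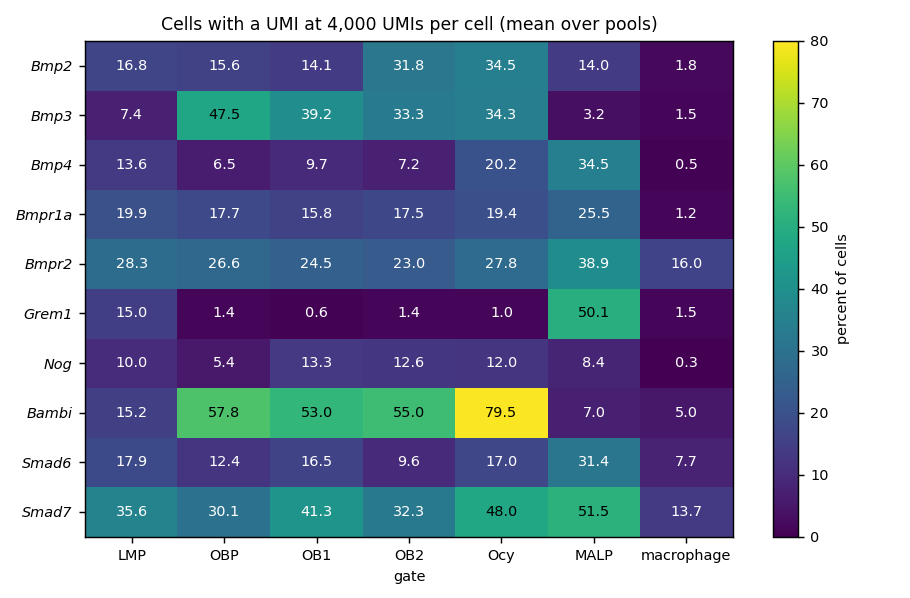
Map of the share of cells (%) with at least 1 UMI of each member (rows) in each gate (columns) after thinning every cell to 4000 UMIs, shaded and printed as the mean over pools, with the macrophage gate for comparison. *Grem1* reaches 50.1% in MALP and stays under the macrophage share of 1.54% in the 4 osteogenic gates. Before thinning these 4 gates lay above macrophages, with 5.30% in OBP, 3.42% in OB1, 6.44% in OB2 and 3.03% in Ocy against 2.06%.

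Within a gate, pairs of members were compared cell by cell in thinned cells. The measure was the share of cells with the second gene among cells with and without the first. Each pool mixed cells of several mice, and cells were not assigned to mice. Differences between the mice of a pool were therefore not separated from differences between cells of the same mouse. The 8 pairs were chosen after the levels were seen, and each was tested over pools by an exact two-sided sign-flip permutation test with Benjamini-Hochberg adjustment over the 8. In the MALP gate, *Grem1* was found in 58.9 ± 9.40% of cells with *Bmp4* and in 45 ± 10.2% of cells without it, higher in 16 of 16 pools (exact permutation p = 3.05e-05, the smallest this design allows, adjusted 2.44e-04). In the LMP gate the same pair went the other way, with *Grem1* in 10.7 ± 4.28% of cells with *Bmp4* and in 15.9 ± 6.07% of cells without it, higher in 2 of 16 pools (exact permutation, adjusted p = 0.00653). *Bambi* was found more often in cells with the ligand in the OBP gate, 60.6% of cells with *Bmp3* against 55.3% without (13 of 16 pools, exact permutation, adjusted p = 0.00653), and in the OB2 gate, 60.1% of cells with *Bmp2* against 53.1% without (12 of 14 pools, adjusted p = 0.00244 by the exact permutation test). In the Ocy gate *Bambi* was found in 85.0% of cells with *Bmp4* and 79.7% without (11 of 15 pools, exact permutation, adjusted p = 0.0083). Not past the threshold were *Bmp2* with *Bambi* in the Ocy gate (83.0% and 78.5%) and *Grem1* with *Smad6* in the MALP gate (32.1% and 29.1%), both at adjusted p = 0.0603 by the exact permutation test, and *Nog* with *Smad7* in the OB1 gate (44.5% and 43.7%, adjusted p = 0.816 by the exact permutation test).

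Levels were also taken in cells that fell into no gate because 2 scores were close. Among 1006 cells with the highest score for LMP and the next for MALP, *Bmp4* had a level of 1.21 ± 0.50 and *Grem1* of 0.731 ± 0.234, and among 817 cells with MALP highest and LMP next the levels were 1.57 ± 0.585 and 0.860 ± 0.334. *Bmp4* was thus between the LMP (0.476) and MALP (1.86) levels, whereas *Grem1* was close to its LMP level (0.721) and far from its MALP level (3.31). On the osteogenic border, 991 cells with LMP highest had *Bmp3* at 0.885 ± 0.368, *Bambi* at 1.05 ± 0.205 and *Grem1* at 0.146 ± 0.104, and 1189 cells with the osteogenic side highest had *Bambi* at 1.35 ± 0.385 and *Grem1* at 0.124. These levels lay between those of the LMP and the OBP gates. The means of *Nog* (0.461 ± 0.169 and 0.400 ± 0.198) and *Bmp2* (0.790 ± 0.477 and 0.776 ± 0.261) lay above those of both gates. The spread between pools was wide, and these differences were not tested. The osteogenic side also holds the OB1, OB2 and Ocy gates. There *Nog* was at 0.424, 0.383 and 0.369 and *Bmp2* at 0.385, 1.25 and 1.38.

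**Figure D4:**
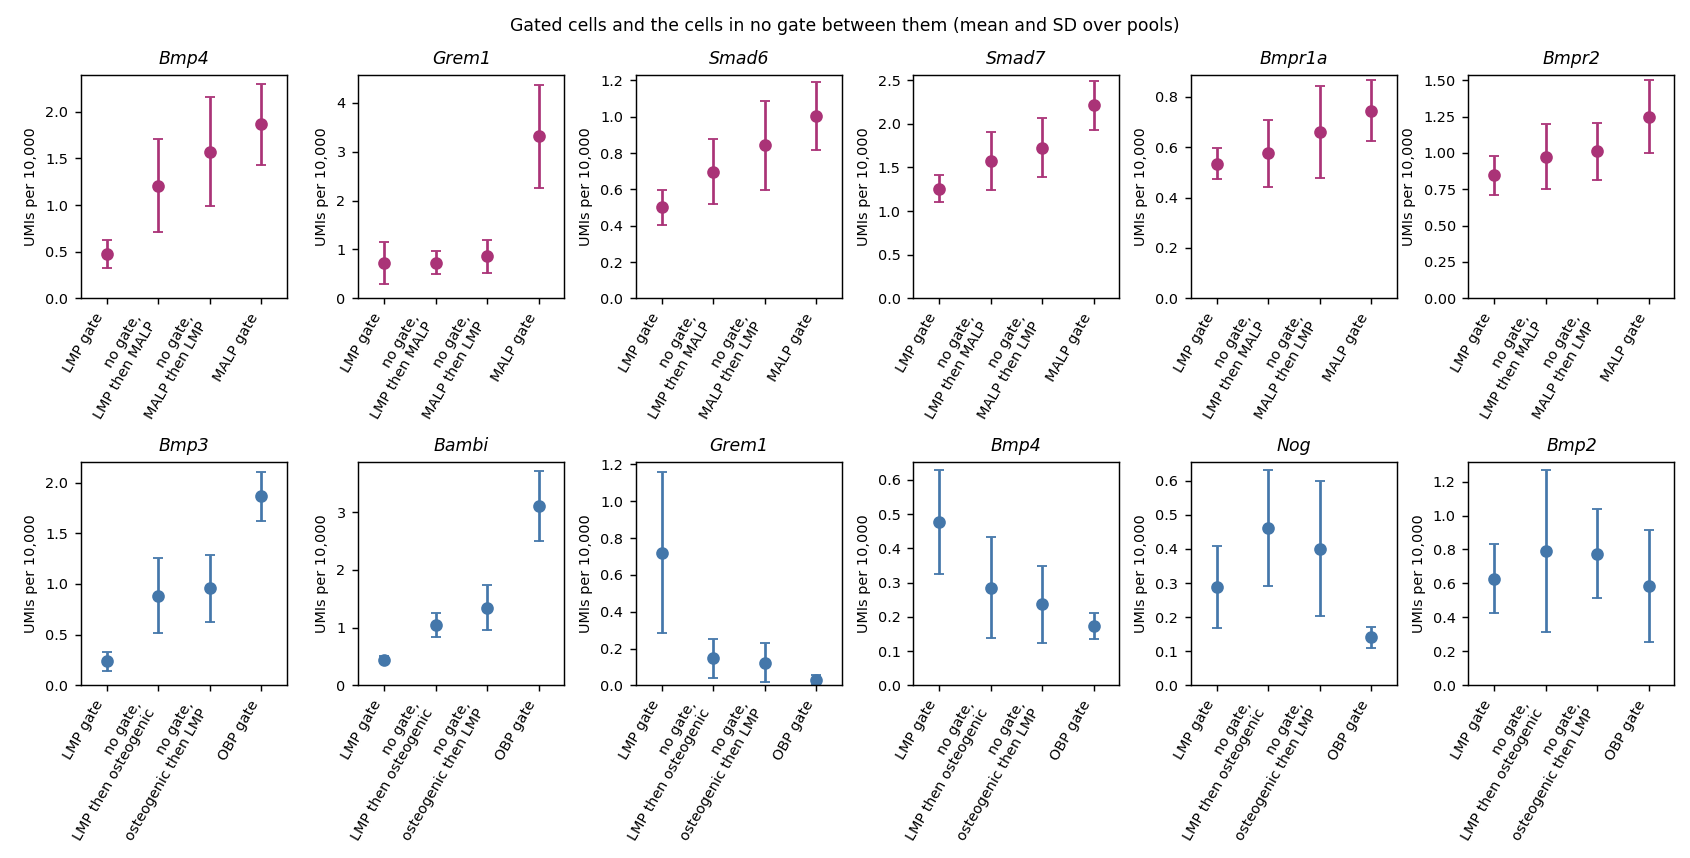
Levels (UMIs per 10,000, mean over pools with SD) of members in the gates and in the cells between them. *Bmp4* in the cells between LMP and MALP (1.21 and 1.57) lies between the LMP level of 0.476 and the MALP level of 1.86, and *Grem1* (0.731 and 0.860) near the LMP level of 0.721.

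Of 42 further genes of the pathway, 37 were tested. Between MALP and LMP 13 were higher and 6 lower, beside 18.5% and 19% of all genes, and of the receptors and co-receptors 4 of 7 were higher and 0 lower, while of the target genes 4 of 9 were higher and 1 lower. The largest was *Chrdl1*, a chordin-like secreted BMP inhibitor, with a level of 2.98 in MALP and 0.118 in LMP and a difference of 4.49 ± 0.13 (adjusted p = 2.29e-46). *Gdf10*, a ligand related to *Bmp3*, was at 0.499 against 0.0304 (difference 3.89), and *Acvr2a*, a type II receptor, at 0.327 against 0.0604 (difference 2.17). *Bmp6* (difference 3.43), *Gdf5* (2.64) and the co-receptor *Rgma* (2.61) were higher from levels under 0.1 in both gates. *Fstl3*, a follistatin-like inhibitor of activins, was lower in MALP, 0.126 against 0.610 (difference −2.54), as was *Bmp8a* (−2.13). The Smads that carry the signal, 4 genes, were called in neither direction.

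Between OBP and LMP 6 of the 37 were higher and 15 lower, beside 18.2% and 22% of all genes, and 6 of the 8 tested secreted inhibitors and modulators were among the lower. *Gdf6*, a ligand, was at 0.00650 in OBP and 0.128 in LMP (difference −4.31) and the target gene *Id4* at 0.112 against 1.00 (−2.90 ± 0.12, adjusted p = 1.49e-36). *Gdf10* (−3.06) and *Rgma* (−2.15) were lower at levels under 0.04. *Dlx3*, a homeobox gene, was at 0.305 in OBP against 0.0542 in LMP (difference 2.79), and *Chrd*, which encodes chordin (2.01), and *Gdf5* (2.06) were higher at levels under 0.05.

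In the later osteogenic steps fewer of the 37 differed by at least 1 on the log2 scale. From OBP to OB1, 10 were higher and 3 lower, beside 10.8% and 8.47% of all genes, with *Bmp6* higher by 1.56 on the log2 scale at levels under 0.01. From OB1 to OB2, 9 were higher and 2 lower, beside 15.2% and 13.1% of all genes, with *Fstl3* at 0.759 against 0.328 (difference 1.11 ± 0.12, adjusted p = 1.40e-13), and with *Rgma* (1.45), *Bmp6* (−1.37) and *Gdf5* (1.29) at levels under 0.03. From OB1 to Ocy, 10 were higher and 6 lower, beside 7.32% and 10.1% of all genes. *Id1*, a direct BMP target gene, was at 1.65 in Ocy and 0.588 in OB1 (difference 1.31 ± 0.09, adjusted p = 9.87e-21), and *Gdf5* was at 0.0477 against 0.00801 (difference 2.00).

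**Figure D5:**
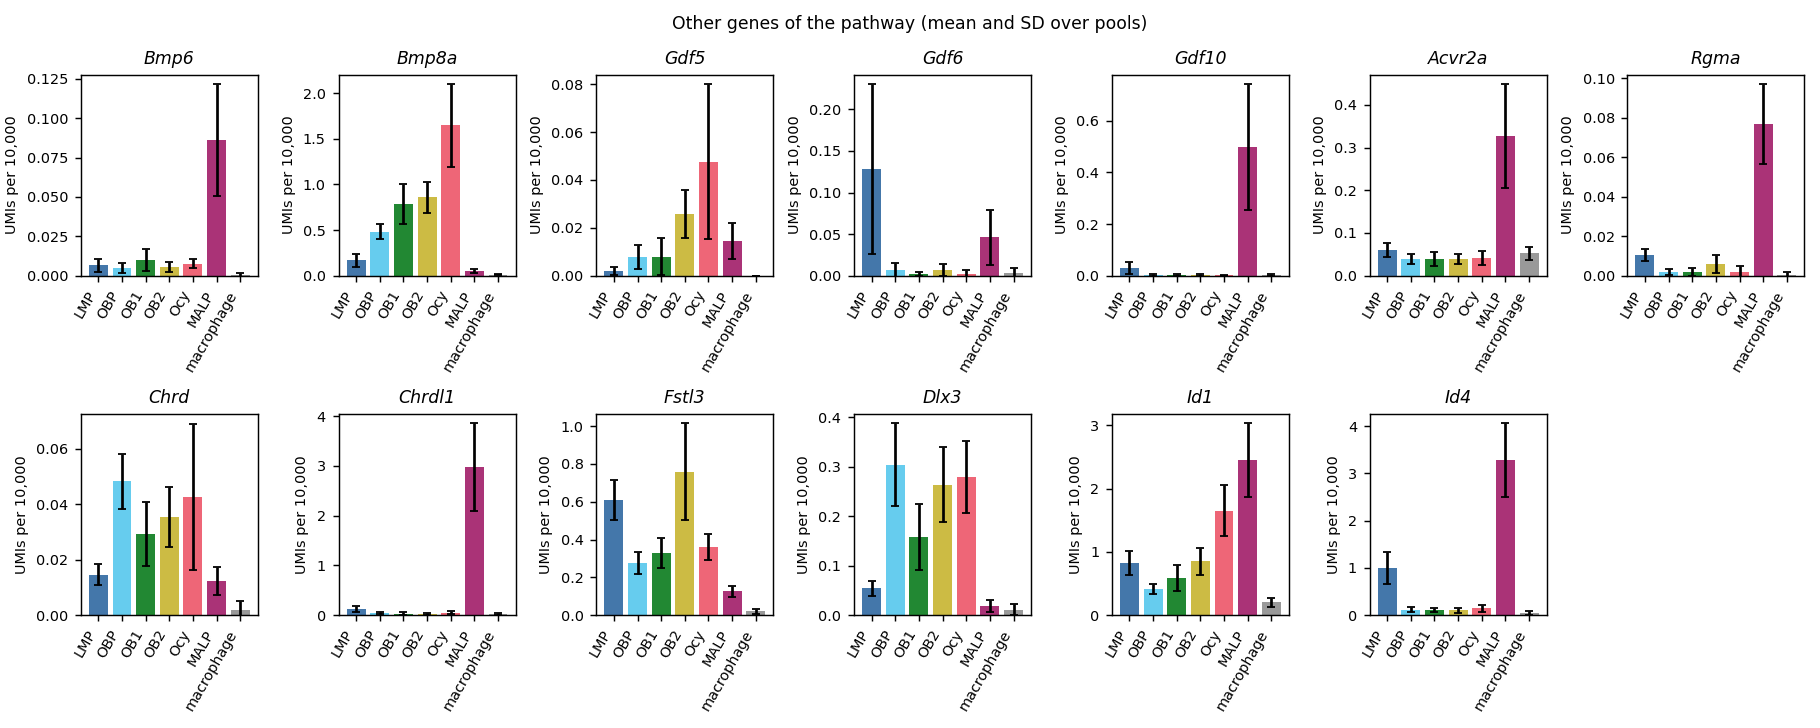
Levels (UMIs per 10,000, linear axes from 0) of the other pathway genes that the text names, by gate, as bars for the mean and error bars for the SD over pools. *Chrdl1* stands at 2.98 in MALP against 0.118 in LMP, *Id1* at 1.65 in Ocy against 0.588 in OB1, and *Bmp6*, *Gdf5* and *Rgma* have means under 0.1 in every gate.

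The members that rose from LMP to MALP include 3 for which a RefSeq promoter is shown here, and their letters follow (GRCm38.p6, 250 bases before to 50 bases after the start, 5′ to 3′ on the gene's strand). Capitals mark GGCGCC, and GGAGCC or its reverse complement GGCTCC, GC-rich sequences of the kind that Smad1 and Smad5 bind, searched on both strands.
*Grem1* (chr2:113758599-113758898, minus strand): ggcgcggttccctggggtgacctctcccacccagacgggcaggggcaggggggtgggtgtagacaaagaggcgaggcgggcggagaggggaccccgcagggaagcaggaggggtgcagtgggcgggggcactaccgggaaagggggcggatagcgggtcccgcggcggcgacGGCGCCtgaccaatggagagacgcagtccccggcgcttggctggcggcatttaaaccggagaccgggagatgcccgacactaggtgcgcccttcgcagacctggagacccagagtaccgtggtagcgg
*Bmp4* (chr14:46390620-46390919, minus strand): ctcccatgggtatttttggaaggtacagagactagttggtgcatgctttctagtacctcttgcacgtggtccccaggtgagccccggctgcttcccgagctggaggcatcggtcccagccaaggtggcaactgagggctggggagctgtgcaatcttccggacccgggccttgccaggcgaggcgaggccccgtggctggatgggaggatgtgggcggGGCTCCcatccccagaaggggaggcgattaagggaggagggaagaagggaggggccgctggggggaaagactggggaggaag
*Smad6* (chr9:64022010-64022309, minus strand): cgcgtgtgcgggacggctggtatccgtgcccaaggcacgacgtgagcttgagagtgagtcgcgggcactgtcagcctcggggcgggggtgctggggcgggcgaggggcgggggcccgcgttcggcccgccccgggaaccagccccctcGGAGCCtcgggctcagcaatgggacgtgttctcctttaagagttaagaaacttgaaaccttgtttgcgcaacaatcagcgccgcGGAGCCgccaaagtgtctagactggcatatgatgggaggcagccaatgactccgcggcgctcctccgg
The *Grem1* window held 1 GGCGCC, the *Bmp4* window 1 GGAGCC and the *Smad6* window 2. Of the 5 members with an entry, *Bmpr1a* and *Bmpr2*, which were not called, held 1 GGCGCC each. Of 32851 promoters of this length, 11.9% held GGCGCC and 30.8% GGAGCC, and a match describes the letters only, since nothing measured here reads binding.

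The genes most like each member over the 94 sums of pool and gate were found by Pearson's r of log2(CPM + 1) among 7551 genes, leaving out gate markers and the members. These r values are descriptions across sums that share pools and depth. *Bambi* was nearest to *Spns2* (r = 0.98), *Pcsk6* (0.97) and *Ackr3* (0.96), and *Grem1* to *Aoc3* (0.97), *Plxdc2* (0.97) and *Igfbp5* (0.96). *Bmp3* was nearest to *Slc13a5* (0.95), *Ano1* (0.94) and *Wisp1* (0.94). *Bmp4* was nearest to *Foxc1* (0.92), *Hipk3* (0.90) and *Crim1* (0.90), the last encoding a membrane protein that binds BMPs. *Smad6* was nearest to *Nfia* (0.91), *Lhfp* (0.91) and *Tank* (0.89), and *Smad7* to *Ier5* (0.89), *Map1lc3b* (0.86) and *Zfand5* (0.82). *Bmpr1a* (*0610030E20Rik*, 0.87, *Yeats2*, 0.86, *Sp3*, 0.86) and *Bmpr2* (*Ncor1*, 0.89, *Nbeal1*, 0.88, *Ddx6*, 0.88) were each followed by broadly expressed genes. *Bmp2* (*Anxa4*, 0.77; *Wsb2*, 0.76; *Ccdc80*, 0.76) had weaker neighbours, and *Nog* the weakest (*Larp6*, 0.60; *Cst3*, 0.57; *Serpine2*, 0.56). The variance between pools was from 1.87 to 296 times that of counting alone over the 60 pairs of member and gate.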

How the data were processed

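BMSC-OB single-cell RNA-seq was analysed from the 16 pools of the first of 2 sequencing runs. The authors deposited raw UMI counts per gene and barcode made with Cell Ranger 5.0.0 on mm10 (GRCm38). The annotation release is not given in the sources used here, and coordinates were looked up in GENCODE M21 by gene ID (30934 of 31053 found). The second run holds the same droplets (98.2% of barcodes shared) and served as an alternative.

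Cells with 400 to 6200 genes (limits the study states for reads, which on UMIs would have kept 37865 cells in place of 88909), at most 10% mitochondrial, 20% Rpl and 15% Rps counts were kept. Doublets were called per pool against simulated doublets at a rate that rose with the number of barcodes, and removed (5003 cells). Cells of at least 2000 UMIs were assigned to a gate by the scaled sums of fixed markers, with a margin of 0.25 between the highest and the next score. The score limits were set after the marker distributions were seen. Of the 35239 cells gated in the first run, 30776 were also gated in the second, and 99.3% of these took the same gate.

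UMI counts were summed per pool and gate (at least 20 cells) and tested with edgeR 4.0.16 in R 4.3.3 (quasi-likelihood, TMM, filterByExpr, 12093 genes), with 6 gates in 1 fit and the pool as a block. DESeq2 1.42.0 was an alternative, and the code was tested on simulated data. The pool pairs the gates, since the cells of both come from the same mix of mice. In each comparison every same-pool correlation of deviations was above 0.1 (lowest 0.104). With the pool as a block, the p-values rest on how far the differences between gates varied from pool to pool. The spread between pools that all gates share is taken out.

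The 10 members are all described. Of the 42 further pathway genes, those called with a log2 fold change of at least 1 in size were named, at most 8 per comparison, and for each member the 3 most similar genes. A gene of the pathway list that this rule names is not reported here beyond the list's counts. The members and lists were chosen with earlier results of these data known.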

Additional observations from a re-analysis of the deposited data

How the results depend on the processing

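All 60 shares of cells moved by more than the SD over pools without thinning, 52 of 60 did with thinning to 2000 UMIs, and 0 of 60 did with the second run. The counts of members called were 5 (OBP against LMP), 7 (MALP against LMP), 4 (OB1 against OBP), 5 (OB2 against OB1) and 3 (Ocy against OB1), and 80 of 85 counts under the alternatives were within 1.5 times of these. The exceptions were 4 for MALP against LMP with a floor of 1 on the log2 fold change, 7 with no floor and 2 with a floor of 1 for OB1 against OBP, and 3 with no margin and 1 with a floor of 1 for OB2 against OB1. Without the replicate block for the pool the counts were again 5, 7, 4, 5 and 3, and they were the same without pool 13, the shallowest, and without pool 6, an alternative chosen after seeing the data.

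The sign of 23 differences changed, all of members not called. Between OBP and LMP, library totals gave −0.15 for *Bmp2*, −0.25 for *Bmpr1a*, −0.15 for *Bmpr2* and −0.26 for *Smad7*. DESeq2 size factors gave −0.035 for *Bmpr1a* and −0.038 for *Smad7*, the DESeq2 Wald test −0.039 and −0.037, no filter −0.012 and −0.014, and a wider margin −0.034 and −0.064. Thinning gave −0.077 for *Smad7*, and *Bmpr1a* was between −0.00205 (without pool 13) and 0.020 (without pool 6) when a pool was left out. Between OB1 and OBP the values were −0.10 for *Bmpr2* with library totals, 0.0052 for *Grem1* without the replicate block and 0.010 for *Bambi* with no margin. Between OB2 and OB1 *Bambi* was at −0.0034 in a fit of only these gates. Between Ocy and OB1 *Bmpr1a* was at −0.043 with the second run and −0.00610 with a wider margin, and *Grem1* at 0.0064 with library totals, 0.061 with thinning, 0.074 without pool 6 and −0.16 without pool 13. With library totals, calls were gained for *Smad6* (OBP against LMP, −0.54) and for *Bmp2* (−0.52) and *Bmp3* (−0.53, OB1 against OBP). The same scaling gained the call of *Bmpr2* between MALP and LMP that is described with the receptors. Calls were also gained for *Nog* with thinning (MALP against LMP, −0.51) and with a wider margin (Ocy against OB1, −0.63). The cause of these changes was not tested. Of the levels under the alternatives 418 moved by less than 1 SD and 2 by more, where *Bambi* in MALP rose to 0.279 with doublets kept and 0.275 with no margin.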
